A study of Homo sapiens with 3 samples.

Results

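The liver X receptors and the genes through which a cell exports, mobilises or stores cholesterol were examined as a group of 9 genes: the receptors NR1H2 and NR1H3, the exporters ABCA1 and ABCG1, the further receptor targets SMPDL3A and MYLIP, the lysosomal proteins NPC1 and NPC2, and the esterifying enzyme SOAT1. The genes were chosen by name when ratios from these same arrays were already known, so their ratios are given as a description, without a test. Probe sets annotated to exactly 1 gene were found for 8 of the 9 genes; NR1H2 had none, and the 8 genes are part of 12321 genes tested. All cells were HCT-116, a human colorectal cancer line, on 3 arrays: SCD1-WT cells with DMSO as vehicle for 24 h, SCD1-WT cells with the SCD1 inhibitor T-3764518 at 100 nM for 24 h, and SCD1-KO cells. SCD1 (gene symbol SCD) is stearoyl-CoA desaturase, which puts a double bond into saturated fatty acids. The knockout was made with CRISPR-Cas9 and guide RNAs against SCD1, and clones were obtained by limiting dilution and selected by PCR. The study checked the partial genomic deletion by sequencing and reported no SCD1 protein by immunoblot. The sources used here do not say which clone was hybridised. The inhibitor dose, and DMSO for 24 h as the condition of the SCD1-KO cells, come from the study's methods and not from the sample labels. With 1 array per condition there is no replicate check, no difference below has a p-value, and a lower signal in bulk RNA can come from fewer cells expressing a gene or from less RNA per cell, which cannot be told apart.

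The liver X receptors are nuclear receptors that bind oxysterols, which are oxidised forms of cholesterol. Together with retinoid X receptors they bind direct repeats of a hexamer separated by 4 bases and switch on genes that lower the cholesterol content of the cell. ABCA1 passes cholesterol and phospholipid to lipid-poor apolipoprotein, and ABCG1 passes cholesterol to lipoprotein particles. MYLIP, also called IDOL, marks lipoprotein receptors for degradation, and SMPDL3A is a secreted phosphodiesterase. Cholesterol taken up with lipoproteins leaves the lysosome through NPC2 and the membrane protein NPC1, and SOAT1 esterifies it for storage in lipid droplets.

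Each probe set has 1 signal per array, from the MAS5 procedure, on a linear scale. Probe sets entered where the average of their 3 log2 signals reached that of the middle probe set on the array, a signal of 56.6; these are the kept probe sets. A gene takes the median of the log2 ratios of these probe sets and is called higher or lower where this ratio is at least 2-fold. For signals below 56.6 the fold is a bound, written "at least" and computed with 56.6 in place of the signal. As an error measure, an SD of log2 ratios between probe sets of the same gene is given with each gene ratio of the group. It is pooled over all genes at a similar signal, so it is not the spread of the named gene. It does not cover differences between cultures. The trimmed mean signal was 500.1 on each array. SCD itself, read by 4 kept probe sets, had a geometric mean signal of 2907 on the DMSO array, 14919 on the inhibitor array and 5506 on the SCD1-KO array; these were not placed relative to the deleted bases and so do not check the knockout. Each cell type marker below was read by its brightest probe set alone, which favours a signal above that level. So read, all 6 colon epithelial markers were at or above 56.6 on every array. EPCAM, however, was at 16859, 17224 and 6840 and CDH1 at 5038, 6686 and 1285 in the same order of arrays. The other 4 were higher on the SCD1-KO array than on the DMSO array, KRT8 at 15723 against 12259, KRT18 at 28120 against 23407, KRT19 at 26158 against 25313 and VIL1 at 85.8 against 72.3; their part in the results was not tested. The summed signal of the 5 macrophage and leukocyte markers measured was 165.1 to 178.3. That of the 5 fibroblast markers was 1256 to 1536, most of it from COL1A1 at 1128, 1409 and 1090. That of the 4 endothelial markers was 178.7 to 307.8.

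The promoters of the genes that were called, ABCA1 and NPC1, are shown because ABCA1 stood at the lower and NPC1 at the upper end of the group under the inhibitor. Both are RefSeq sequences of GRCh38.p14 and hold the 250 bases before the annotated start, 5′ to 3′ on the minus strand, on which both genes lie: chr9:104928156-104928405 for ABCA1 and chr18:23586507-23586756 for NPC1. Capitals mark the E-box CACGTG and the best match to a direct repeat of AGGTCA with a gap of 4 bases, which for ABCA1 lies on the strand opposite to the gene.
ABCA1: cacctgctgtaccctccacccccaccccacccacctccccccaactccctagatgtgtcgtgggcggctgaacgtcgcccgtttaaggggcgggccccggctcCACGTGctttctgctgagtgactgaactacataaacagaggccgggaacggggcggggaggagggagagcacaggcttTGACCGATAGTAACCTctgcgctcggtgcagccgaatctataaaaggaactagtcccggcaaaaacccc
NPC1: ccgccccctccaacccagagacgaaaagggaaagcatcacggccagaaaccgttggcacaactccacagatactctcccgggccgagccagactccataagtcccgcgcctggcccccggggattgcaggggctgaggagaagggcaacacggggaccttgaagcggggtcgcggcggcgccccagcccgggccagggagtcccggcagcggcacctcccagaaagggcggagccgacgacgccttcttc
The search covered both strands from 250 bases before to 50 bases after the start and allowed up to 2 mismatches over the 12 fixed bases of the repeat. The ABCA1 match had 2 mismatches and lay at -69 to -54 from the start, and its E-box began at -147. Of 34796 promoters searched, 2.35% held such a repeat and 7.2% held the E-box. Promoter entries were found for 7 of the 9 genes, 11 promoters in all, and ABCA1 was the only gene of the group with either pattern; the best NPC2 match had 3 mismatches and that of NPC1 had 5. The GC content of these promoters was 50.3% to 73.7%, with 62.7% for ABCA1 and 69.7% for NPC1, against a median of 58.7% over all promoters. A match describes the letters only and says nothing about binding.

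**Figure D1:**
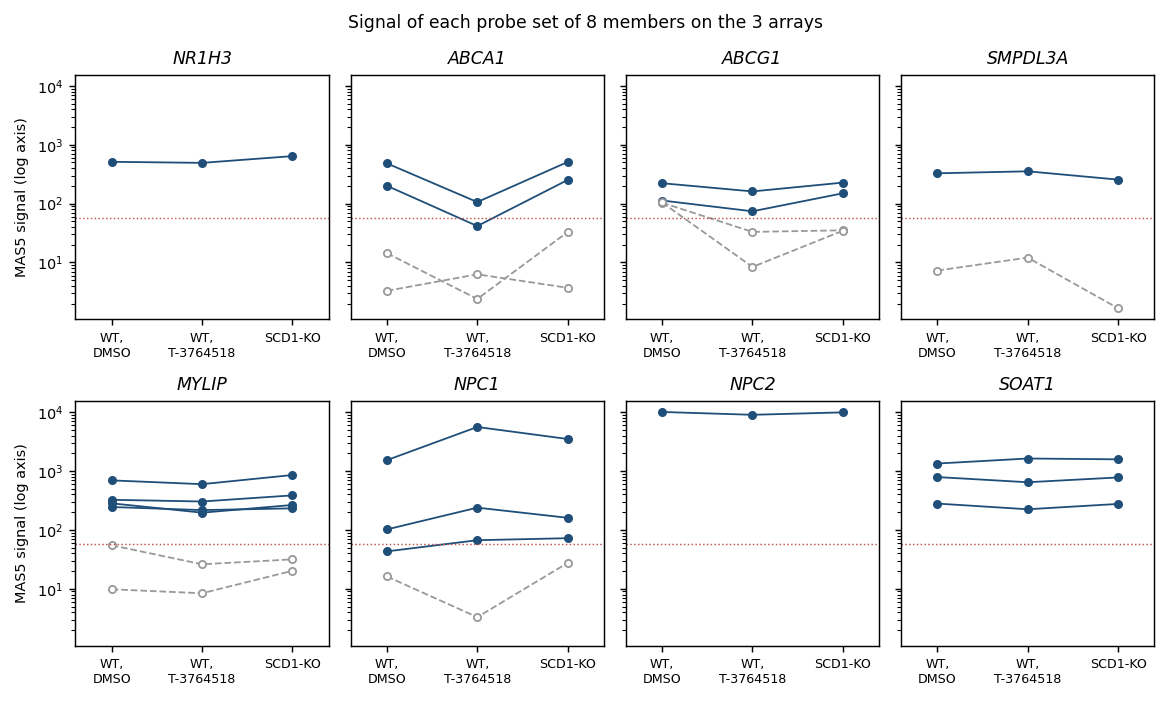
MAS5 signal (log axis) of each probe set of 8 genes on the 3 arrays; filled points joined by solid lines are the kept probe sets, open points joined by dashed lines those not kept, and the dotted line is the signal of 56.6. Both kept ABCA1 probe sets dip on the T-3764518 array, to 106.3 and 41.6, and the brightest NPC1 probe set peaks there at 5609.9.

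Of the receptors, NR1H3 (LXR alpha) was read by 1 probe set. Its signal was 513.4 on the DMSO array, 492.7 on the inhibitor array and 641.1 on the SCD1-KO array. The log2 ratio was -0.06 (SD 0.36) with the inhibitor and 0.32 (SD 0.37) in SCD1-KO cells. Neither ratio was larger than this SD, which comes from other genes at a similar signal. NR1H2 (LXR beta), the receptor found in most cell types, has no value here.

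ABCA1 had the lowest ratio of the group with the inhibitor and was close to the DMSO level in SCD1-KO cells. Its brighter kept probe set had a signal of 483.5 on the DMSO array, 106.3 on the inhibitor array and 510.3 on the SCD1-KO array. The dimmer kept probe set had 201.2, 41.6 and 252.5 in the same order. In both, the inhibitor array stood alone at the low end and the SCD1-KO array was slightly above the DMSO array. The brighter probe set, whose signals all lay above 56.6, was 4.55-fold lower with the inhibitor, and the dimmer one at least 3.56-fold lower. The gene ratio on the log2 scale was -2.23 (SD 0.45), at least 4.02-fold lower and 4.69-fold on the deposited signals, the position 6 from the lowest of 12321 genes. In SCD1-KO cells the gene log2 ratio was 0.20 (SD 0.46), a signal 1.15-fold that with DMSO. A further pair of ABCA1 probe sets had signals of 2.4 to 32.9 on all arrays and was not kept.

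ABCG1 was lower with the inhibitor by less than the SD pooled over genes at a similar signal, and its probe sets disagreed on SCD1-KO cells. That SD is not the spread of ABCG1 itself, whose kept probe sets had log2 ratios of -0.46 and -0.61 with the inhibitor. The kept probe sets gave 222.2 and 113.0 on the DMSO array, 161.2 and 74.1 on the inhibitor array, and 227.5 and 149.9 on the SCD1-KO array. The gene log2 ratio was -0.54 (SD 0.59) with the inhibitor, 1.45-fold lower, and 0.22 (SD 0.63) in SCD1-KO cells. The 2 probe sets below the filter gave 103.7 and 104.6, then 33.1 and 8.4, then 35.2 and 34.7 on these arrays. These were at least 1.83-fold and 1.85-fold lower on both other arrays, so all 4 ABCG1 probe sets were lower with the inhibitor, while in SCD1-KO cells 2 were higher and 2 were lower. With every probe set counted, the gene log2 ratios were -1.13 and -0.76.

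The other receptor targets in the group lay near the DMSO level. The kept SMPDL3A probe set gave 327.6 on the DMSO array, 354.0 on the inhibitor array and 255.8 on the SCD1-KO array, log2 ratios of 0.11 (SD 0.45) and -0.36 (SD 0.46). Its other probe set was at 1.67 to 12.1. MYLIP was read by 4 kept probe sets, whose geometric mean signal was 353.8 on the DMSO array, 296.9 on the inhibitor array and 378.1 on the SCD1-KO array. All 4 were lower with the inhibitor, by log2 ratios of -0.53 to -0.10, and the gene value of -0.19 (SD 0.36) turned to 0.085 when the arrays were scaled to 1 median. In SCD1-KO cells the MYLIP log2 ratio was 0.09 (SD 0.37).

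NPC1 was higher on both arrays than with DMSO and reached the call only with the inhibitor. Its brightest probe set had a signal of 1532.0 on the DMSO array, 5609.9 on the inhibitor array and 3502.3 on the SCD1-KO array, 3.66-fold and 2.29-fold that with DMSO. A dimmer kept probe set had 102.0, 239.0 and 160.7, and the dimmest kept one 43.2, 66.9 and 72.4. The brighter pair was lowest with DMSO and highest with the inhibitor. The dimmest kept one lay under 56.6 on the DMSO array and passed the filter through the other arrays, so its order is not counted. The gene log2 ratio was 1.23 (SD 0.45) with T-3764518, 2.34-fold, the position 173 from the highest of 12321 genes. In SCD1-KO cells it was 0.74 (SD 0.46), 1.68-fold on the deposited signals and at least 1.58-fold. This median is the value of the dimmest kept probe set. The brighter pair gave log2 ratios of 1.19 and 0.66 in SCD1-KO cells. With the brightest probe set alone, NPC1 was called in SCD1-KO cells as well. With every probe set counted, including a dim one at 16.2, 3.3 and 27.5, the gene log2 ratio with the inhibitor was 0.93, under the call. NPC2, the soluble partner of NPC1, had signals of 10091.6, 9029.8 and 9932.4, log2 ratios of -0.16 (SD 0.23) and -0.02 (SD 0.23).

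SOAT1, which esterifies cholesterol, was not called. Its brightest probe set had signals of 1342.0, 1633.8 and 1582.3 in the order DMSO, T-3764518 and SCD1-KO, and the other pair had 791.1, 645.7 and 779.1 and 280.3, 224.4 and 276.5. The brightest was higher with the inhibitor and the other pair lower, so the direction depends on the probe set. The gene log2 ratios were -0.29 (SD 0.36) and -0.02 (SD 0.37).

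**Figure D2:**
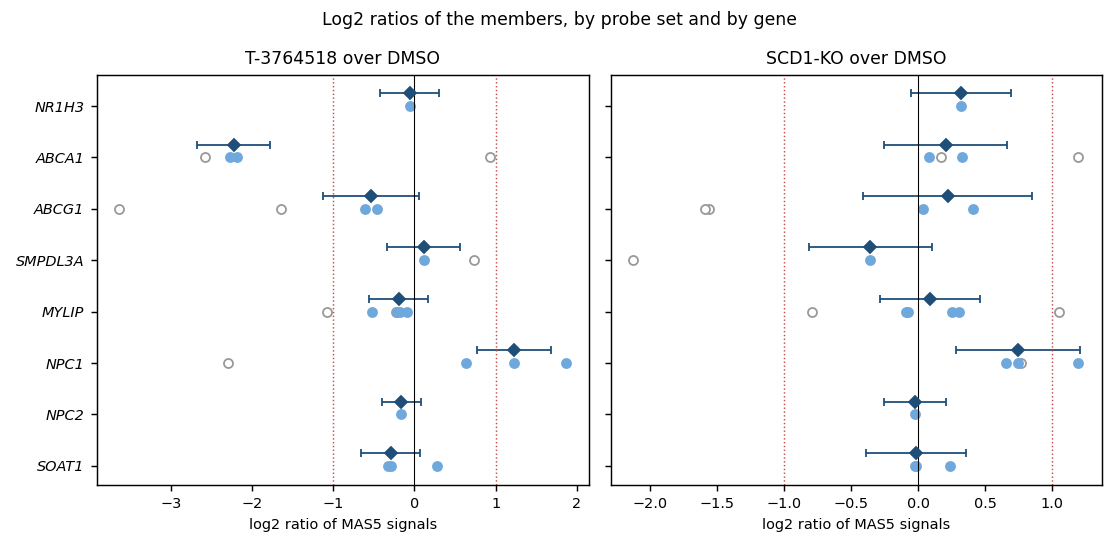
Log2 ratio of MAS5 signals to the DMSO array for T-3764518 (left) and SCD1-KO cells (right); light points are kept probe sets, open points those not kept, diamonds the gene value with bars of 1 SD between probe sets at a similar signal, and dotted lines mark 2-fold. With the inhibitor ABCA1 lies at -2.23 and NPC1 at 1.23, and in SCD1-KO cells no gene value passes 2-fold.

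In all, 1 of the 8 genes (NPC1) was called higher with T-3764518 and 1 (ABCA1) lower, where 2.18% of all genes were called higher and 3.30% lower. In SCD1-KO cells 0 of the 8 were called in either direction, where 3.12% of all genes were called higher and 3.93% lower. Since the genes were chosen with these ratios known, nothing is read from these counts. The closest value inside the fold threshold was NPC1 with the inhibitor (2.34-fold) and the closest outside it NPC1 in SCD1-KO cells (1.68-fold). The latter is the value of the dimmest kept NPC1 probe set, which lay under 56.6 on the DMSO array. At the signal filter, the probe set just inside was an NPC1 one at a mean signal of 59.4 and the one just outside an ABCG1 one at 49.4. The median log2 ratio of the 8 genes was -0.18 with the inhibitor, beside -0.09 over all genes, and 0.14 in SCD1-KO cells, beside -0.01. Both ratios use the same DMSO array.

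**Figure D3:**
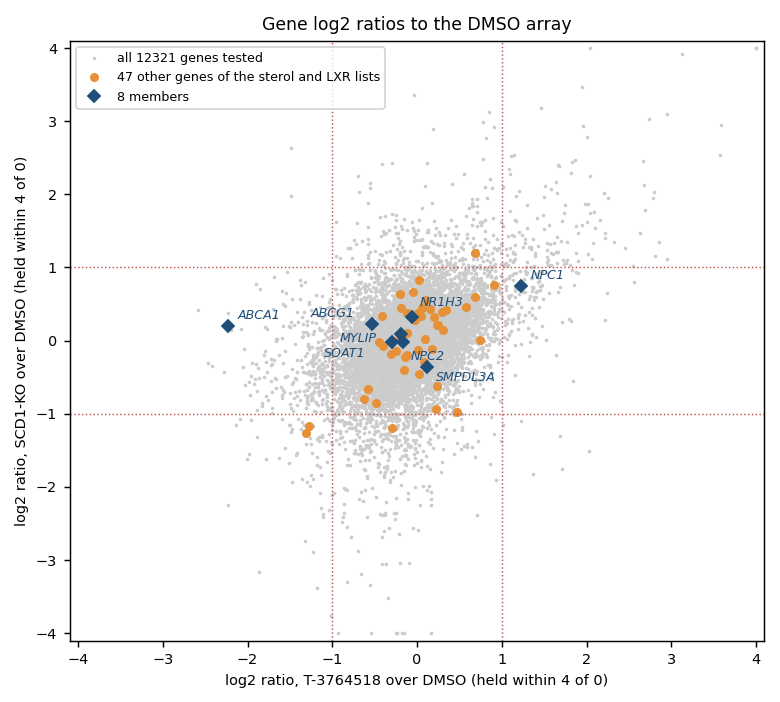
Gene log2 ratio of T-3764518 (x axis) against that of SCD1-KO cells (y axis), both to the DMSO array, for all 12321 genes (grey), 47 other genes of the receptor and sterol lists (orange) and the 8 genes described (diamonds); values are held within 4 of 0 and dotted lines mark 2-fold. ABCA1 lies far to the left near a y value of 0.20, and NPC1 lies to the upper right at 1.23 and 0.74.

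The arrays of the inhibitor and of SCD1-KO cells were also set against each other directly, without the DMSO array. ABCA1 was the 1 gene of the 8 that was called, at a log2 ratio of -2.43 (SD 0.48), at least 4.63-fold lower with T-3764518 than in SCD1-KO cells, and 0 genes of the 8 were called higher. Over all genes 4.52% were called lower and 3.10% higher in this ratio. ABCG1 followed at -0.76 (SD 0.67), and NPC1 was at 0.57 (SD 0.48), SMPDL3A at 0.47 (SD 0.48), MYLIP at -0.39 (SD 0.38) and NR1H3 at -0.38 (SD 0.38). NPC2 and SOAT1 were at -0.14 (SD 0.23) and -0.27 (SD 0.38). The median of the 8 was -0.33, beside -0.06 over all genes.

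The genes nearest to ABCA1 in the plane of both DMSO ratios were KLHL22, a substrate adaptor of a ubiquitin ligase, F2R, a thrombin receptor, and CCNE2, a cyclin of the G1 to S transition. They were sought among 6151 genes with at least 2 kept probe sets, by distance over the 2 ratios of 3 arrays. KLHL22 lay at -1.80 and 0.18 and was 0.43 away from ABCA1 on the log2 scale. Its geometric mean signal on the inhibitor array was 43.3, under 56.6, so -1.80 and this distance rest on a dim signal. F2R lay at -1.81 and -0.19, and CCNE2 at -2.06 and -0.37. The genes nearest to NPC1 were FKBP14, a peptidyl-prolyl isomerase of the endoplasmic reticulum, at 1.20 and 0.72, CREM, a transcription factor of the cAMP response, at 1.19 and 0.72, and BTG1, an antiproliferative factor, at 1.22 and 0.69. They were 0.038 to 0.053 away, far closer than any of the 6151 genes searched was to ABCA1. The NPC1 position in SCD1-KO cells is the value of its dimmest kept probe set.

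Related genes were taken in 6 lists with 67 genes, of which 47 had a kept probe set; the lists too were chosen with results of these arrays known. Of the 15 other targets of the liver X receptors, 10 were tested and none was called in either DMSO ratio. Their medians were 0.08 with the inhibitor, beside -0.09 over all genes, and -0.05 in SCD1-KO cells, beside -0.01. With the inhibitor 8 of the 10 lay above 0, beside 41.0% of all genes. In SCD1-KO cells 5 lay above 0, beside 48.9% of all genes. APOC1, an apolipoprotein, had the ratio farthest from 0 on the deposited signals, at 68.3 on the DMSO array, 94.4 on the inhibitor array and 34.7 on the SCD1-KO array. The last signal lay under 56.6, so the SCD1-KO ratio of APOC1 is a bound, at least 1.21-fold lower. PLTP, the phospholipid transfer protein, named after its value was seen, was measured above that level throughout, at 164.2, 106.6 and 94.1, and was 1.74-fold lower in SCD1-KO cells. It was read by 1 kept probe set. Among 13 partners and cofactors of the receptors, 9 were tested and 0 called. TBL1X, a corepressor subunit, was farthest from 0, with geometric mean signals of 466.6, 522.2 and 350.7 over 5 kept probe sets. Its gene log2 ratios were 0.02 with the inhibitor and -0.45 in SCD1-KO cells. The probe sets disagreed in direction, from -0.44 to 0.78 and from -0.84 to 0.12.

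Of 9 genes of oxysterol production and clearance, 3 were tested. CYP27A1, the mitochondrial sterol 27-hydroxylase, had signals of 128.7, 51.9 and 53.4 in the order DMSO, T-3764518 and SCD1-KO. It was at least 2.27-fold lower on both of the latter, where its signals lay under 56.6, and was the only called gene of that list. Its 1 kept probe set passed the filter through the DMSO array alone. A lower signal on the other arrays was thus favoured by the filter. Of the 3 tested genes, 2 lay below 0 in each DMSO ratio and 1, EBP, above 0. EBP, named after its value was seen, had geometric mean signals of 554.5, 1019 and 922.3 over 3 kept probe sets. As the median over probe sets it was 1.88-fold and 1.70-fold higher, not called, with every kept probe set higher in both ratios. Of 18 tested genes of sterol transfer between membranes, none was called with the inhibitor. GRAMD1C, a sterol transfer protein read by 1 kept probe set, was lower in SCD1-KO cells, at 746.2, 609.5 and 327.4, which is 2.28-fold. The list's median was -0.03 and 0.31, and 13 of the 18 genes lay above 0 in SCD1-KO cells, beside 48.9% of all genes.

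In the list of cholesteryl ester storage and hydrolysis, 6 of 8 genes were tested. LIPE, the hormone-sensitive lipase, was called lower in both ratios, at 104.8, 43.2 and 46.8, at least 1.85-fold on each array. CEL, a bile-salt-activated lipase, was called higher in SCD1-KO cells on the deposited signals, at 42.4, 68.0 and 97.3, at least 1.72-fold. Both calls rest on a signal under 56.6. The 1 kept LIPE probe set passed the filter through the DMSO array alone, and the 1 of CEL through the other arrays. The filter thus favoured these calls. LRP8, a lipoprotein receptor that MYLIP marks for degradation, was the 1 gene tested of its list. Its geometric mean signals over 3 kept probe sets were 1065, 1205 and 1404. The medians of its probe set log2 ratios were 0.29 and 0.39, with probe sets from -0.12 to 0.36 with the inhibitor and from 0.38 to 0.42 in SCD1-KO cells. Over the 6 lists, 2 of the 47 genes tested (4.26%) were called lower with T-3764518, beside 3.30% of all genes. In SCD1-KO cells 3 (6.38%) were called lower and 1 (2.13%) higher, beside 3.93% and 3.12% of all genes. With signals below 56.6 set to that level, 1 gene remained 2-fold lower with the inhibitor (CYP27A1), and 2 lower (CYP27A1 and GRAMD1C) and 0 higher in SCD1-KO cells. For CYP27A1 this rests on a probe set that passed the filter through the DMSO array alone.

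**Figure D4:**
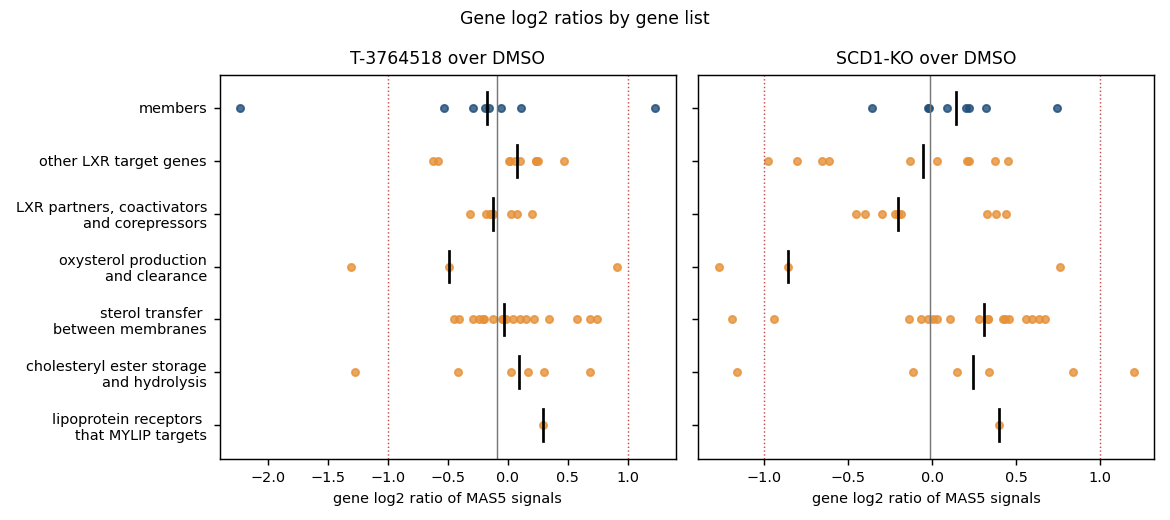
Gene log2 ratio of MAS5 signals to the DMSO array for T-3764518 (left) and SCD1-KO cells (right), with 1 point per tested gene, by list; black bars are list medians, the grey line is the median of all genes and dotted lines mark 2-fold. Only the group of 8 holds a gene under -2, ABCA1 with the inhibitor, and the medians of the 2 largest lists lie at 0.08 and -0.03 with the inhibitor.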

How the data were processed

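Total RNA was measured on the Human Genome U133 Plus 2.0 Array, 1 array for each of 3 conditions, grouped by the sample labels. The authors deposited 1 signal intensity for each probe set, in linear units, made with MAS5 according to the submitters' notes; the sources used here name no version. MAS5 subtracts a local background and scales each array. Medians were 68.8 (DMSO), 56.7 (T-3764518) and 62.4 (SCD1-KO), and the number of arrays limits the precision. Of 54675 probe sets, 41091 carried 1 gene symbol in the platform annotation after controls were left out, 1801 several, and 11777 were not listed. Values were taken to log2, and 23192 probe sets at or above percentile 50 were kept, representing 12321 genes. The 9 genes, the lists and the rule for related genes (called genes of each list, at most 4, or else the 1 gene farthest from 0; the 3 nearest genes to each called member) were chosen with earlier results of these data known. The calculations were checked on simulated arrays with changes far past 2-fold and the same noise at every signal. That check does not bear on calls near 2-fold or on dim signals. The alternatives were 3 normalizations, 2 filters, an offset of 16.5, raising dim signals to 56.6, 3 choices of probe sets, other thresholds and other motif mismatches. Promoters came from RefSeq (GRCh38.p14). A comparison of the NR1H2 and NR1H3 proteins was not run. The tools were pandas 2.3.3 and numpy 2.4.6 under Python 3.11.15, with statsmodels 0.14.6 for lowess and matplotlib 3.10.9 for plots.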

Additional observations from a re-analysis of the deposited data

Results flagged for a closer look

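ABCA1 had log2 ratios of opposite sign to the shared DMSO array, -2.23 for the inhibitor array and 0.20 for the SCD1-KO array, and both kept probe sets lay on the same side of 0 in each ratio. With 1 array per condition the difference was not tested, and 0.20 was within 0.46, the SD between probe sets pooled over genes at a similar signal.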

How the results depend on the processing

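The count of genes called higher with T-3764518 (1, NPC1) was 0 without the signal filter and at a 3-fold threshold, and the count called lower (1, ABCA1) was 2 without the filter, with ABCG1 added, and 0 at a filter of percentile 75, where ABCA1 has no kept probe set. In SCD1-KO cells the count called higher (0) was 1 (NPC1) at percentile 75, with the brightest probe set and at 1.5-fold, and the count called lower (0) was 1 (SMPDL3A) without the filter. In T-3764518 over SCD1-KO cells, the count higher (0) was 1 (SMPDL3A) without the filter, and the count lower (1) was 0 at percentile 75 and 2 at 1.5-fold, with ABCG1 added. The median of the group moved from -0.18 to 0.10 with the inhibitor when arrays were scaled to 1 median, which shifted the median of all genes by 0.28. At percentile 75, with 5 genes left, it moved from 0.14 to 0.30 in SCD1-KO cells and from -0.33 to -0.14 between the arrays without DMSO. The ABCA1 log2 ratio ranged from -2.23 to -1.95 with the inhibitor and from 0.08 to 0.34 in SCD1-KO cells over 9 settings, and that of NPC1 from 0.93 to 1.87 and from 0.58 to 1.19 over 10. For NR1H3, MYLIP and NPC2 the sign with T-3764518 turned when the arrays were scaled to 1 median (0.22, 0.09 and 0.12), for NR1H3 also after lowess correction (0.018), and for SOAT1 with the brightest probe set (0.28); in SCD1-KO cells the sign of NPC2 and SOAT1 turned on scaling to 1 median (0.12 for both), that of SOAT1 also at percentile 75 (0.11), with the brightest probe set (0.24) and with the mean of probe sets (0.07), and that of ABCG1 without the filter (-0.76). Of all calls with the inhibitor, 39.8% were higher, but 58.1% after quantile normalization, 77.2% after scaling to 1 median, 60.0% after lowess correction and 68.5% at percentile 75; scaling to 1 median moved this share from 44.3% to 61.0% in SCD1-KO cells. For T-3764518 over SCD1-KO cells it moved from 40.7% to 53.2%, 57.7% and 53.1% with the same 3 corrections. With at most 1 mismatch no promoter of the group held the repeat; with at most 3, ABCA1 and NPC2 did. The causes were not tested. Signals under 56.6 limit what the dim probe sets can show. No paired analysis was possible because each group has 1 array.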

Other observations

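Set directly against each other, the inhibitor and SCD1-KO arrays differed by 2-fold or more on the deposited signals at 2 genes of the related lists, named after their values were seen. CAV1, the main coat protein of caveolae, had a geometric mean signal of 10576 on the DMSO array, 12311 on the inhibitor array and 5516 on that of SCD1-KO cells; it was 2.23-fold higher with the inhibitor than in SCD1-KO cells. APOC1 was at least 1.67-fold higher in the same ratio. The 2 kept probe sets of APOE, another apolipoprotein, disagreed in direction, at log2 ratios of -0.18 and 1.87 on the deposited signals. A signal under 56.6 enters the APOE values: the gene was 1.80-fold higher on the deposited signals but at least 1.34-fold as a bound. In this ratio 2 of the 47 list genes (4.26%) were called higher and 0 lower, beside 3.10% and 4.52% of all genes, and with signals below 56.6 set to that level CAV1 was the 1 gene left.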
